A study of Homo sapiens with 6 samples.

Results

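Genes of the splicing machinery were followed on 6 Affymetrix arrays of 3 human ovarian cancer cell lines. They were chosen by symbol, from the stems HNRNP, SRSF, SF3A, SF3B, U2AF, PRPF and SNRP, with pseudogenes and antisense genes left out. On the array 55 such genes were named, by 56 probe sets, of 14884 named genes in all. Of these, 48 had a mean log2 signal of at least 5 and were tested among 8620 genes, and the 7 others are called dim below. They comprised 21 hnRNP genes (17 tested), 10 SR protein genes (9 tested), 3 U2AF genes, 10 PRPF genes and 11 SNRP genes (9 tested). No SF3A or SF3B gene had a named probe set, and with HNRNPD, HNRNPH2, SRSF9, SRSF10, SNRPN and others 19 of 74 protein-coding genes of these stems were not analysed here.

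Splicing removes introns from a transcript in the nucleus. Small nuclear ribonucleoproteins built on rings of Sm proteins, the products of most SNRP genes, recognise the splice sites, U2AF binds the end of the intron, and the PRPF proteins hold together the later complexes that carry out the reaction. SR proteins bind exons and mostly favour their use, whereas hnRNP proteins coat the transcript and often oppose it, so their balance shapes alternative splicing.

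ES-2, OVCAR-3 and SKOV-3 were the lines, and each gave 1 array after transfection with miR-135a-3p and 1 after transfection with the control miR-blank. The 3 lines are therefore the replicates of the transfection (n = 3), and nothing in the labels says that a line's arrays came from separate cultures. The question was which transcripts are higher or lower once the microRNA has been introduced. Values are log2 signals, and a difference is miR-135a-3p minus miR-blank unless lines are compared.

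The transfected sequence is shown with 3 other mature arms of the miR-135 hairpins, because none of them has its seed (bases 2 to 8, in capitals). The sequences are from RefSeq (GRCh38.p14), and miR-135a-3p lies at chr3:52294232-52294253 on the minus strand.
hsa-miR-135a-3p: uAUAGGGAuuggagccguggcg
hsa-miR-135a-2-3p: aUGUAGGGauggaagccaugaa
hsa-miR-135b-3p: aUGUAGGGcuaaaagccauggg
hsa-miR-135a-5p: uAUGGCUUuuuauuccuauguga
The signal of its hairpin gene, MIR135A1, was 12.57 for ES-2, 12.20 for OVCAR-3 and 11.58 for SKOV-3 after miR-135a-3p, against 1.75, 2.26 and 2.07 after miR-blank. It was the 1 gene called by limma among the 8620 (adjusted p 4.83e-05). Of the ovarian carcinoma markers, the brighter of 2 probe sets named as keratin KRT18 read 9.36 to 10.47 on the 6 arrays. Which transcripts that probe set measures was not tested. KRT8 read 5.29 to 6.75, KRT7 3.82 to 6.75 and WT1 5.59 to 7.15. PAX8 read 8.12 and 8.80 in SKOV-3 and 4.12 to 4.80 in the other lines, near the array medians of 4.16 to 4.23, and EPCAM read 3.78 to 4.32 in all lines. The endothelial genes PECAM1, VWF and KDR read 3.87 to 4.91, and of the leukocyte genes TYROBP read 4.97 to 5.87 and CD68, also a lysosomal protein, 7.29 to 10.40. The mesenchymal genes VIM, FN1 and ZEB1 read 5.08 to 10.85, 4.41 to 11.34 and 6.77 to 7.45. Some markers differed between a line's arrays. In SKOV-3 CD68 read 10.20 after miR-135a-3p and 7.96 after miR-blank, and KRT7 4.87 and 6.40. In OVCAR-3 FN1 read 6.63 after miR-135a-3p and 4.41 after miR-blank, and KRT7 4.85 and 3.82. KRT8 differed by −0.80, 0.72 and 0.62 and VIM by 0.12, 0.46 and 0.53 for ES-2, then OVCAR-3, then SKOV-3. The part of these in the differences of the splicing factors was not tested. Fewer cells of a type and less RNA per cell cannot be told apart in such samples.

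Splicing factor signals differed little between the transfections, and limma called 0 of the 48 members (background 0.0116%). At an unadjusted limma p under 0.05 there were 2 members, HNRNPA1 and HNRNPC, both lower after miR-135a-3p, against 2.91% of all tested genes. The median of the members' mean differences was −0.04, and that of all tested genes −0.01. Lower signal in every line was found for 12 of the 48 (background 13.4%) and higher signal in every line for 1 (background 9.54%). The members lower in all lines were 7 hnRNP genes, 2 SR protein genes, 2 PRPF genes and 1 SNRP gene. The count rests on all lines being asked, and asking only 2 lines cannot give fewer members. Without SKOV-3, 23 members were lower in both remaining lines (47.9%, against 32.4% of tested genes) and 4 higher (8.33%, against 21.8%). Without OVCAR-3, 16 were lower (33.3%, against 23.1%) and 10 higher (20.8%, against 24.1%). Without ES-2, 17 were lower (35.4%, against 25.8%) and 3 higher (6.25%, against 18.6%). With all lines, 9 were lower and 2 higher after cyclic loess, and 9 lower and 3 higher after quantile normalization. No share over all tested genes is given after these scalings, and the backgrounds above are those of the deposited values. Members were mostly bright, and among the 30 with a mean of at least 8, a threshold chosen after seeing the data, 5 were lower in all lines (16.7%, against 12.6% of the 2012 tested genes this bright).

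**Figure D1:**
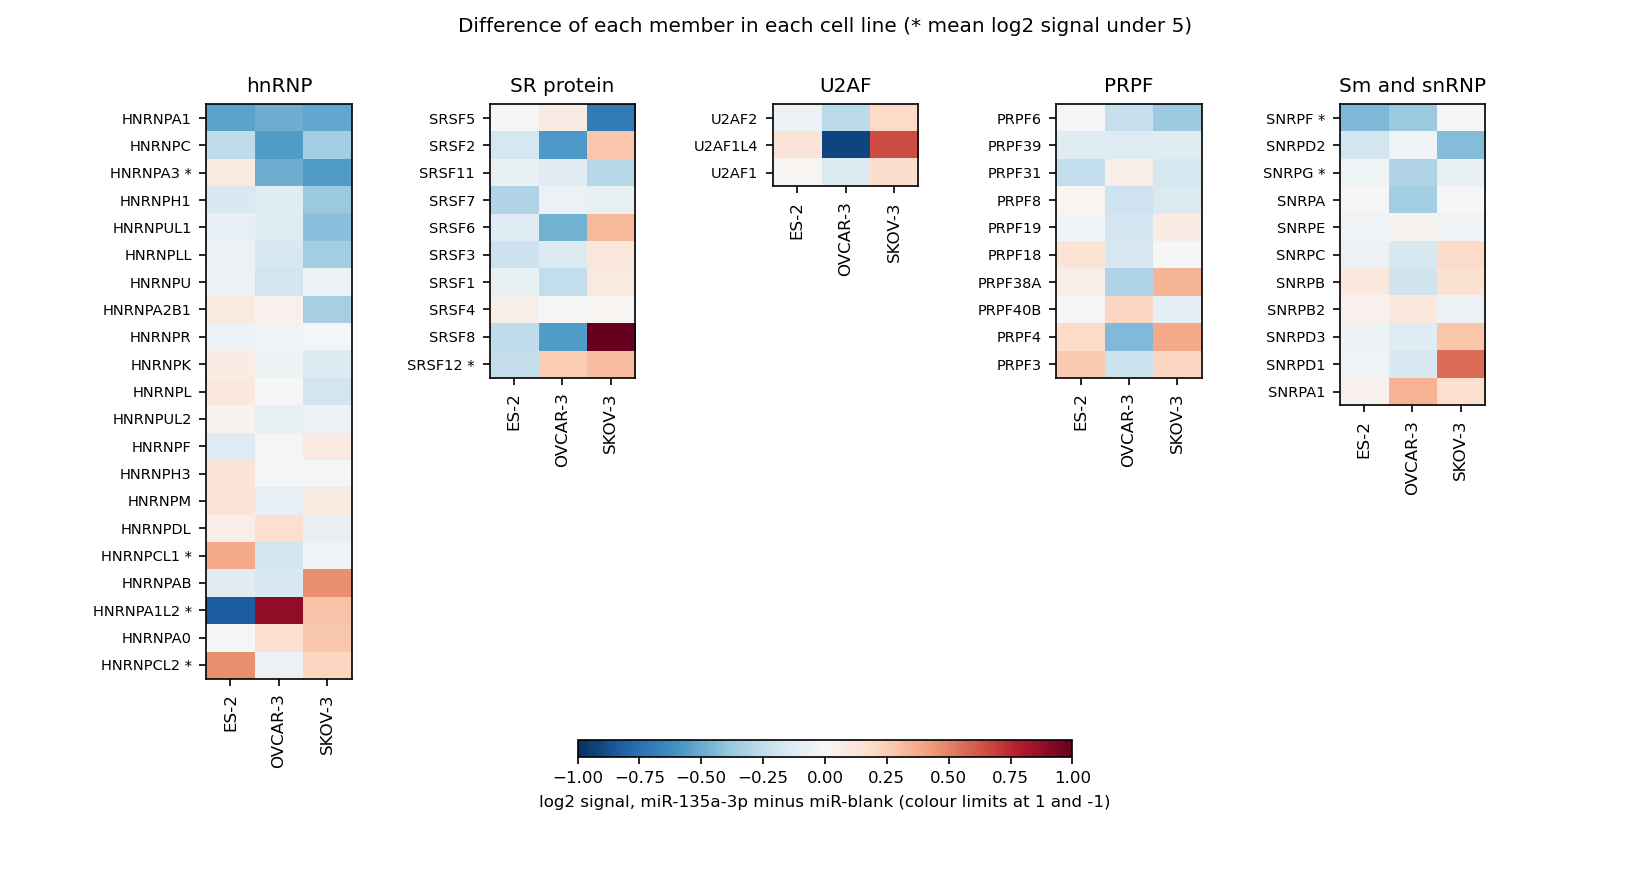
Log2 difference, miR-135a-3p minus miR-blank, of the 55 members (rows, ordered by mean within each class) in the 3 lines (columns). Blue is lower and red higher after miR-135a-3p, with colours ending at −1 and 1, so that SRSF8 in SKOV-3 (1.12) lies past the end of the scale. HNRNPA1 and HNRNPC are blue in every line, while SRSF8 and U2AF1L4 change colour between OVCAR-3 and SKOV-3.

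HNRNPA1, an hnRNP protein that binds nascent transcripts and often blocks the use of nearby exons, had the lowest mean difference of the members. Its probe set read 6.47 for ES-2, 6.86 for OVCAR-3 and 6.45 for SKOV-3 after miR-135a-3p, against 7.01, 7.35 and 6.98 after miR-blank. All 3 miR-135a-3p signals lay below all 3 miR-blank signals, which held for 1 of the 48 members, with a background of 1.19%. The differences were −0.54, −0.49 and −0.52, a mean of −0.52 ± 0.03 (SD, n = 3) or 0.699 of the control level. Ranked by the difference nearest to 0 of the 3 lines, from the most negative, HNRNPA1 stood at place 4 of the 8620 genes. The limma SE was 0.13, the p 0.00603 and the adjusted p 0.999, so the difference did not pass. The exact sign-flip test over the 3 lines gave p = 0.25 (two-sided), the smallest that 3 pairs allow.

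HNRNPA1 has many near-identical copies in the genome, and its value is uncertain where probes could bind these. The annotation named 2 probe sets as the transcribed pseudogene HNRNPA1P10. The first read 12.11, 12.00 and 11.85 for ES-2, then OVCAR-3, then SKOV-3 after miR-135a-3p, against 12.17, 12.00 and 11.84 after miR-blank. The second read 9.60, 9.37 and 9.20 after miR-135a-3p, against 9.63, 9.27 and 9.22 after miR-blank. Neither carried the difference of the HNRNPA1 probe set, since their differences ran from −0.06 to 0.10 over both probe sets and the 3 lines. The probe set of another copy, HNRNPA1P33, read 4.62, 4.45 and 5.72 after miR-135a-3p, against 4.38, 4.50 and 6.84 after miR-blank, so its one large difference was in SKOV-3 (−1.12). The intact copy HNRNPA1L2 was dim, with differences of −0.83 for ES-2, 0.89 for OVCAR-3 and 0.28 for SKOV-3. The number of the second HNRNPA1P10 probe set lies close to that of SNRPD1 on chromosome 18, while HNRNPA1P10 is on chromosome 19. Which transcripts each of these probe sets measures was not tested, and signals of different probe sets cannot be set against each other.

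HNRNPC, which binds runs of uridine and keeps cryptic exons out of transcripts, came next. It read 6.88, 6.76 and 6.49 for ES-2, then OVCAR-3, then SKOV-3 after miR-135a-3p, against 7.14, 7.32 and 6.84 after miR-blank. Each line was lower after miR-135a-3p, but the groups overlapped, since ES-2 after miR-135a-3p lay above SKOV-3 after miR-blank. The mean difference was −0.39 ± 0.15 (SD, n = 3), with a limma p of 0.0282 and an adjusted p of 0.999.

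The promoter of HNRNPC is shown as that of the member lower in all lines after HNRNPA1, for which none is printed. In each promoter printed, capitals mark matches on either strand to 6 motifs. The CCAAT box was searched as CCAAT and the Sp1 GC box as GGGCGG. The TATA box was searched as TATAAA and the ETS motif as CCGGAA. The NRF1 motif was searched as GCGCATGCG and the YY1 motif as AAGATGG. The 250 bases before the gene start lie at chr14:21269443-21269692, minus strand, GRCh38.p14.
HNRNPC promoter: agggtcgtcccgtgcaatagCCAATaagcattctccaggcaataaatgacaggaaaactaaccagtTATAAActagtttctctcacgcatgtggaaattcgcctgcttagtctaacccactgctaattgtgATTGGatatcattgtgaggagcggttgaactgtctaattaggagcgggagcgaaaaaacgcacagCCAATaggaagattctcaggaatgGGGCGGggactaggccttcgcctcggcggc
It holds CCAAT 3 times, counting both strands, and GGGCGG and TATAAA 1 time each.

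Other hnRNP genes had smaller mean differences. HNRNPH1, which binds runs of guanine, read 5.89, 5.97 and 5.53 after miR-135a-3p for ES-2, then OVCAR-3, then SKOV-3, against 6.05, 6.09 and 5.90 after miR-blank (mean −0.22 ± 0.13, SD, n = 3). HNRNPUL1 had −0.08, −0.12 and −0.41 in the same lines and HNRNPLL, known as a regulator of CD45 splicing in T cells, −0.06, −0.16 and −0.35. HNRNPU, which binds RNA and chromatin in the nuclear scaffold, had −0.05, −0.19 and −0.06. HNRNPR had differences of −0.06, −0.04 and −0.02. Each of these genes was lower in every line, with its largest difference in OVCAR-3, SKOV-3 or, for HNRNPR, ES-2, and none had an unadjusted limma p under 0.05. At the upper end stood HNRNPA0, which binds AU-rich elements, with a mean of 0.14 ± 0.14, and HNRNPAB with 0.07 ± 0.34 (both SD, n = 3). HNRNPAB read 10.01 after miR-135a-3p and 9.54 after miR-blank in SKOV-3, and was slightly lower in the other lines (−0.11 in ES-2 and −0.15 in OVCAR-3). Of the 17 tested hnRNP genes, limma called 0 (background 0.0116%). At an unadjusted limma p under 0.05 there were 2 (11.8%, background 2.91%). In all 3 lines 7 were lower (41.2%, background 13.4%) and 0 higher (background 9.54%). The class median was −0.03, against −0.01 over all tested genes.

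**Figure D2:**
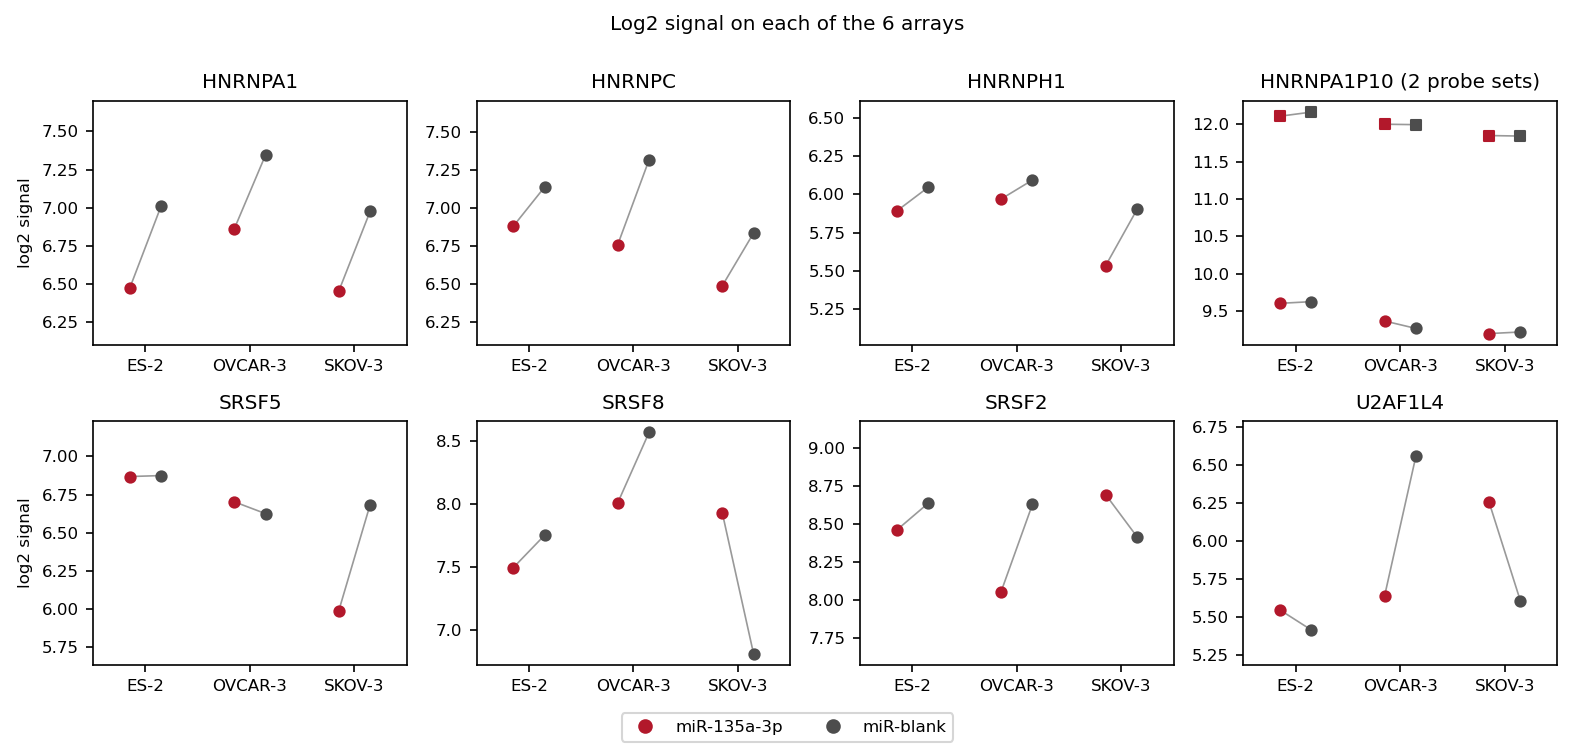
Log2 signal (vertical axes) on each of the 6 arrays, by cell line, with miR-135a-3p in red at the left of each pair and miR-blank in grey at the right. Circles and squares in the HNRNPA1P10 panel are the 2 probe sets given that name. HNRNPA1, HNRNPC and HNRNPH1 were lower after miR-135a-3p in each line, the HNRNPA1P10 probe sets were nearly level, and SRSF8, SRSF2 and U2AF1L4 ran in opposite directions in OVCAR-3 and SKOV-3.

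SR protein genes did not run one way over the 3 lines. In ES-2 and in OVCAR-3, 8 of 9 tested SR genes had lower signal after miR-135a-3p, with medians of −0.13 in each, and in SKOV-3 3 had lower and 6 higher signal, with a median of 0.10. Over all tested genes 51.1% were lower in ES-2 and 59.4% in OVCAR-3, and 52.2% were higher in SKOV-3. SRSF8, an SR gene derived from a copy of SRSF2, read 7.50, 8.01 and 7.93 for ES-2, then OVCAR-3, then SKOV-3 after miR-135a-3p, against 7.75, 8.57 and 6.81 after miR-blank. Its difference was thus 1.12 in SKOV-3, where it was the largest of the tested members, and −0.26 and −0.56 in ES-2 and OVCAR-3. SRSF2, which binds exonic enhancers, had the same signs in the 3 lines. It read 8.46, 8.05 and 8.69 after miR-135a-3p, against 8.63, 8.63 and 8.41 after miR-blank, in the same order of lines. SRSF6 had −0.13, −0.47 and 0.32. SRSF5 differed in SKOV-3, where it read 5.99 after miR-135a-3p and 6.68 after miR-blank (−0.70), and by −0.01 and 0.08 in ES-2 and OVCAR-3. SRSF11 and SRSF7 were the 2 tested SR genes lower in all lines, with means of −0.15 ± 0.12 and −0.15 ± 0.13 (SD, n = 3). SRSF1, the founding SR protein, had −0.06, −0.24 and 0.10, and SRSF4 had a mean of 0.02 ± 0.03 (SD, n = 3).

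Of the U2AF genes, U2AF2 encodes the subunit that binds the polypyrimidine tract and U2AF1 the one that reads the AG at the intron's end. U2AF2 had a mean of −0.05 ± 0.23 and U2AF1 of 0.02 ± 0.15 (SD, n = 3). Their paralog U2AF1L4 read 5.55, 5.64 and 6.25 for ES-2, then OVCAR-3, then SKOV-3 after miR-135a-3p, against 5.41, 6.56 and 5.60 after miR-blank. Its differences of −0.92 in OVCAR-3 and 0.65 in SKOV-3 both passed 1.5-fold, in opposite directions. The difference between lines was not tested, since a line has 1 array per transfection.

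Among the PRPF genes, PRPF6, which bridges the tri-snRNP, was lower in all lines with −0.02, −0.23 and −0.36. PRPF39, a partner of the U1 snRNP, had −0.12, −0.13 and −0.12, small but alike. PRPF4 and PRPF3, which belong to the U4/U6 snRNP, ran opposite ways in the last 2 lines. PRPF4 had 0.19 for ES-2, −0.44 for OVCAR-3 and 0.38 for SKOV-3, and PRPF3 had 0.26, −0.22 and 0.21. PRPF8, the large protein at the centre of the spliceosome, had 0.02, −0.21 and −0.15. Over the 10 PRPF genes the medians were 0.00 for ES-2, −0.20 for OVCAR-3 and −0.05 for SKOV-3.

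Among the SNRP genes, SNRPA1, a protein of the U2 snRNP, was the 1 tested member higher in all lines. It read 6.34, 6.71 and 6.56 for ES-2, then OVCAR-3, then SKOV-3 after miR-135a-3p, against 6.30, 6.37 and 6.40 after miR-blank, and its mean difference was 0.18 ± 0.15 (SD, n = 3, limma adjusted p 0.999). The Sm protein gene SNRPD2 was the 1 tested SNRP gene lower in all lines, with −0.18, −0.04 and −0.44. SNRPD1, another Sm protein of the same ring, had −0.03, −0.16 and 0.56, and SNRPA, of the U1 snRNP, 0.01, −0.34 and 0.01. SNRPE was named by 2 probe sets. The brighter one read 5.33 to 6.06 and differed by −0.04 to 0.03, and the other read 4.54 to 5.18 and differed by −0.13, −0.59 and 0.16. The probe sets thus disagreed on OVCAR-3, where the dimmer, with a mean of 4.75 under the limit of 5, had the larger difference. The number of the brighter one lies between those of PRPF4 and HNRNPK on chromosome 9, while SNRPE is on chromosome 1. Which transcripts each of the 2 measures was not tested.

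The dim members were not tested. HNRNPCL1 read 1.68 to 2.07, HNRNPA3 3.47 to 4.57, HNRNPA1L2 3.37 to 5.21 and HNRNPCL2 4.07 to 4.94. SNRPG read 3.78 to 4.78 and SNRPF 4.25 to 4.98. SRSF12 read 5.49 and 5.18 in SKOV-3 and 3.10 to 3.36 on the 4 arrays of the other lines, so it stood out in 1 line. The tested member nearest to the limit was SNRPE, with a mean of 5.77 for the brighter of its named probe sets. Next came PRPF18 with 5.81, PRPF39 with 5.82, U2AF1L4 with 5.83 and HNRNPH1 with 5.91.

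Within single lines, differences of at least 1.5-fold in either direction were reached by 0 of 48 members in ES-2, where 3.46% of tested genes did so (1.29% higher and 2.17% lower). In OVCAR-3 this held for 1 member, U2AF1L4, which was lower (background 3.92%, with 1.67% higher and 2.25% lower). The OVCAR-3 count was 4 with equal medians, 2 with no filter and 0 at a mean of at least 6, with no share over all tested genes given for these. SKOV-3 had 3 such members, SRSF8 and U2AF1L4 with higher and SRSF5 with lower signal (background 15.4%, with 8.35% higher and 7.03% lower). With 1 array per transfection these sizes have no replicate check. The SD of the difference over the members was 0.14, 0.23 and 0.33 for ES-2, then OVCAR-3, then SKOV-3, against 0.30, 0.30 and 0.48 over all tested genes. The members were brighter, with median signals of 9.05, 8.77 and 8.82 in these lines against 6.79, 6.79 and 6.86, and the part of brightness in their smaller spread was looked at only among genes with a mean of at least 8. There the SDs were 0.11, 0.18 and 0.26 for 30 members, against 0.21, 0.21 and 0.43 for all 2012 genes.

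OVCAR-3 had the most members on the lower side. There 38 of 48 members had lower and 10 higher signal after miR-135a-3p, with a median of −0.13, where 59.4% of all tested genes were lower and their median was −0.05. In ES-2, 29 were lower and 19 higher (median −0.03), where 51.1% of all tested genes were lower (median −0.01). In SKOV-3, 24 were lower and 23 higher (median −0.01), where 47.8% of all tested genes were lower (median 0.02). After quantile normalization 32 members were lower in OVCAR-3, 25 in ES-2 and 25 in SKOV-3, and after equal medians 40, 32 and 21, so the balance within a line depends on the scaling. Scaling moved the median of all tested genes by at most 0.04 in any line. The share of all tested genes that were lower is not given after these scalings.

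**Figure D3:**
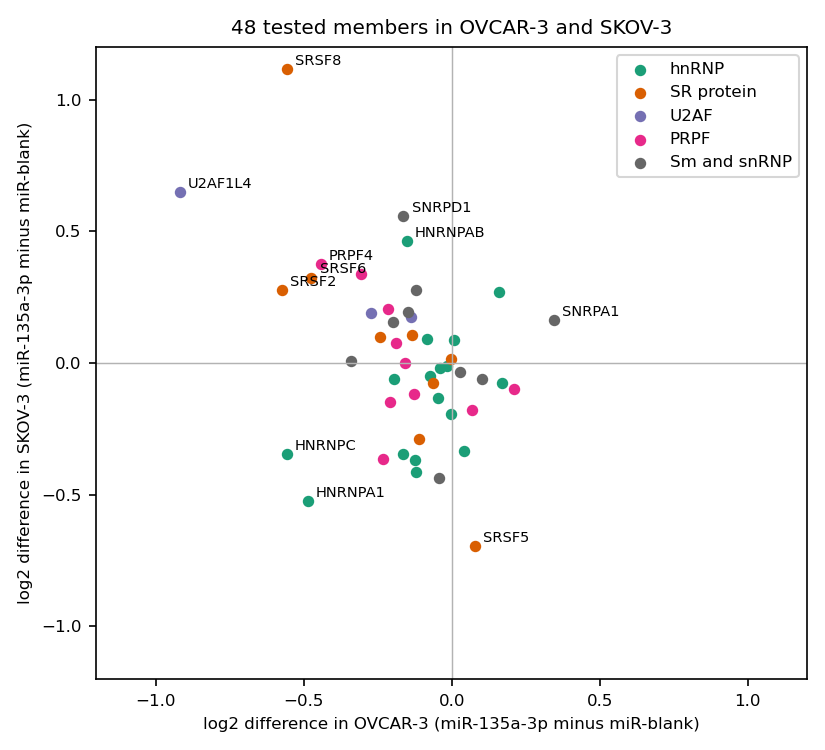
Log2 difference, miR-135a-3p minus miR-blank, of the 48 tested members in OVCAR-3 (horizontal axis) and SKOV-3 (vertical axis), 1 point per gene, coloured by class. Of the points, 20 lie in the upper left part, lower in OVCAR-3 and higher in SKOV-3, with SRSF8 and U2AF1L4 farthest out. HNRNPA1 and HNRNPC lie in the lower left.

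Lower in OVCAR-3 and higher in SKOV-3 described 20 of the 48 members (41.7%), among them SRSF8, U2AF1L4, SRSF2, SRSF6, PRPF4 and SNRPD1, against 33.6% of all tested genes. Across the members the differences in these 2 lines correlated at r = −0.38 (Spearman −0.34, n = 48 genes), and across all tested genes at −0.03 (Spearman −0.14). Without SRSF8 and U2AF1L4 the members' r was −0.15 and Spearman −0.26, so r rested largely on this pair. Between ES-2 and OVCAR-3 the members' r was 0.20 (all tested genes 0.22), and between ES-2 and SKOV-3 0.17 (all tested genes 0.05). Without HNRNPA1 these were 0.10 and 0.06, and −0.46 between OVCAR-3 and SKOV-3. The 2 lines share no array, but the genes of a line share its arrays and are not independent replicates, so these values are descriptions.

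Other genes of splicing were taken from 6 lists, of which 80 genes were tested. limma called 0 of them (background 0.0116%), and 0 had an unadjusted p under 0.05 (background 2.91%). Of the 80, 12 were lower in all lines (15%, against 13.4% of all tested genes) and 5 higher (6.25%, against 9.54%). Their median was −0.03, and that of all tested genes −0.01. Among 27 further splicing regulators, MBNL2, a muscleblind protein, had the lowest mean (−0.33 ± 0.59, SD, n = 3), most of it from SKOV-3 (−1.01), and RBM17 the highest (0.23 ± 0.20, SD, n = 3). In the snRNP and helicase core of 21 genes these were DHX8, a helicase that releases the spliced transcript (−0.18), and SNRNP25 of the minor spliceosome (0.12). In the PRPF19 complex (12 genes) they were BUD31 (−0.22) and BCAS2 (0.19). In the exon junction complex, which marks spliced exons (7 genes), they were ALYREF (−0.16) and RBM8A (0.15). In the snRNP assembly list, which holds the SMN complex (7 genes), they were GEMIN7 (−0.16) and PRMT5 (0.16). The 7 tested assembly genes had lower signal in OVCAR-3 (median −0.37) and higher signal in SKOV-3 (median 0.47) after miR-135a-3p, where 59.4% of all tested genes were lower and 52.2% higher. Of the dim assembly genes, GEMIN2 differed by 0.17 for OVCAR-3 and −0.05 for SKOV-3, GEMIN8 0.04 and 0.35, and GEMIN6 −0.06 and 0.44. GEMIN4 and GEMIN5, the second of which recognises the snRNAs, had 0.94 and 0.76 in SKOV-3 and −0.44 each in OVCAR-3. In the kinases that phosphorylate SR proteins (6 genes) the lowest and highest means were those of CLK1, lower in all lines with −0.11, −0.18 and −0.49, and CLK3, higher in all lines with 0.17, 0.09 and 0.18.

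Between the lines, few splicing factors were called. At an adjusted limma p under 0.05 and at least 2-fold, 0 of 48 members were called for ES-2 minus OVCAR-3 (background 16.5%, with 8.65% higher and 7.82% lower). For ES-2 minus SKOV-3, 1 member was called, as higher (background 12.1%, with 4.85% higher and 7.29% lower). For OVCAR-3 minus SKOV-3, 1 was called higher and 1 lower (background 14.6%, with 5.6% higher and 8.96% lower). Among the 30 members with a mean of at least 8 the counts were 0, 1 and 1, and of the 2012 tested genes this bright 11.8%, 8.75% and 11.5% were called. No test of these shares was made. The error here is how far the difference between the 2 differently transfected arrays of a line varies from line to line. At an adjusted p alone, with no limit on size, 5, 8 and 7 members passed in the 3 comparisons. The backgrounds above hold for the 2-fold limit, and no share over all tested genes is given beside these counts. Without variance moderation, 0 members were called in each of the 3 comparisons, so the calls of HNRNPA0 and HNRNPUL2 rest on it. The counts also moved with single arrays, where no share over all tested genes is given either. Without the miR-blank array of ES-2 or that of SKOV-3, 0 members were called for ES-2 minus SKOV-3. Without the miR-135a-3p array of SKOV-3, 3 were called there and 4 for OVCAR-3 minus SKOV-3. Without the miR-135a-3p array of OVCAR-3, 1 was called for ES-2 minus OVCAR-3 and 1 for OVCAR-3 minus SKOV-3.

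**Figure D4:**
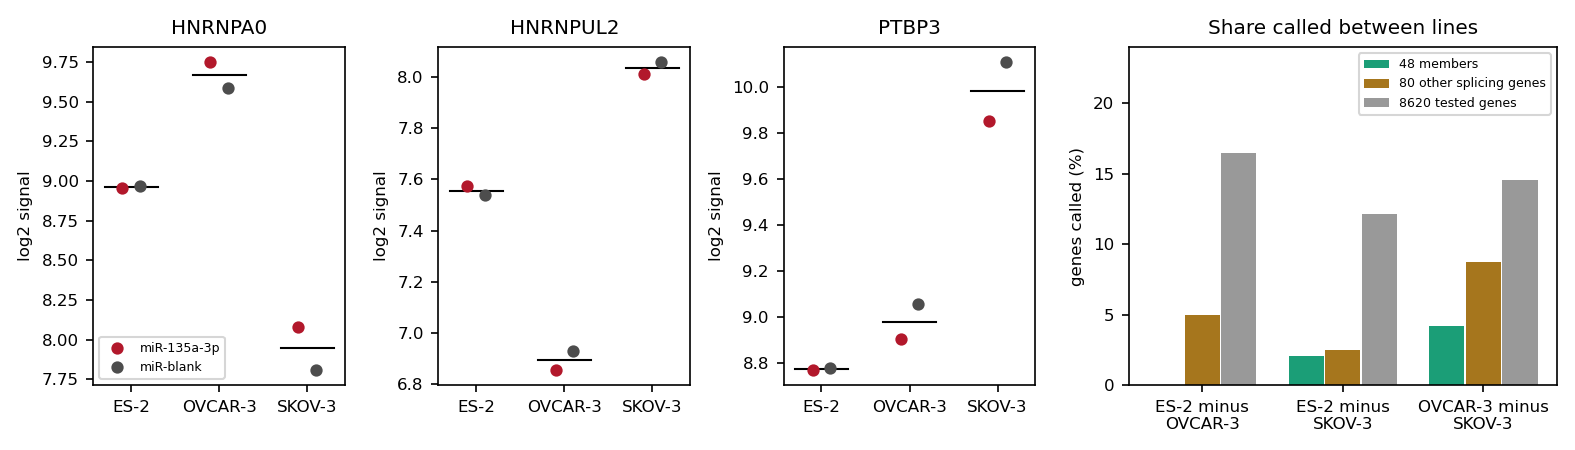
Left, log2 signal of HNRNPA0, HNRNPUL2 and PTBP3 on the 6 arrays, with miR-135a-3p in red, miR-blank in grey and the line mean as a bar. Right, the percentage of genes called between each pair of lines among the 48 members (green), the 80 other splicing genes (brown) and the 8620 tested genes (grey). HNRNPA0 was highest in OVCAR-3 and HNRNPUL2 in SKOV-3, and the green bars are the lowest in every comparison.

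HNRNPA0 separated all 3 lines. After miR-135a-3p and miR-blank it read 9.75 and 9.59 in OVCAR-3, 8.95 and 8.97 in ES-2, and 8.08 and 7.81 in SKOV-3, with no overlap between lines. OVCAR-3 exceeded SKOV-3 by 1.72 ± 0.17 on the log2 scale (limma SE, 2 arrays per line, adjusted p 0.000863), which is 3.30-fold. ES-2 also exceeded SKOV-3, by 1.01 (adjusted p 0.00815), at 2.02-fold just past the limit, and with equal array medians it was 0.98 and not called. ES-2 minus OVCAR-3 was −0.71 (adjusted p 0.0219), under 2-fold. HNRNPUL2, an hnRNP U-like protein linked to the DNA damage response, had the reverse order. It read 6.86 and 6.93 in OVCAR-3, 7.57 and 7.54 in ES-2 and 8.01 and 8.06 in SKOV-3, after miR-135a-3p and miR-blank in each. OVCAR-3 minus SKOV-3 was −1.14 ± 0.16 (limma SE, adjusted p 0.00357).

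Smaller differences passed on p alone. PRPF39 was lower in SKOV-3, with a line mean of 6.02 for ES-2, 6.20 for OVCAR-3 and 5.22 for SKOV-3, and OVCAR-3 minus SKOV-3 was 0.98 (limma adjusted p 0.00616). SNRPB2, a protein of the U2 snRNP, was highest in ES-2 with 9.93, against 9.23 for OVCAR-3 and 9.06 for SKOV-3, and ES-2 minus SKOV-3 was 0.87 (adjusted p 0.0121). PRPF8 had line means of 11.09, 11.10 and 10.45 for ES-2, then OVCAR-3, then SKOV-3, and ES-2 minus SKOV-3 was 0.64 (adjusted p 0.0364). PRPF6 had 9.13, 8.38 and 8.69, and ES-2 minus OVCAR-3 was 0.75 (adjusted p 0.0198). HNRNPA1 had 6.74, 7.10 and 6.71 and passed in no comparison.

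The promoters of the 2 members called between lines, and of U2AF1L4 as a member past 1.5-fold in opposite directions in OVCAR-3 and SKOV-3, are given as the 250 bases before the gene start on the minus strand. They lie at chr5:137754364-137754613, chr11:62727458-62727707 and chr19:35745419-35745668 of GRCh38.p14, in that order, from RefSeq.
HNRNPA0 promoter: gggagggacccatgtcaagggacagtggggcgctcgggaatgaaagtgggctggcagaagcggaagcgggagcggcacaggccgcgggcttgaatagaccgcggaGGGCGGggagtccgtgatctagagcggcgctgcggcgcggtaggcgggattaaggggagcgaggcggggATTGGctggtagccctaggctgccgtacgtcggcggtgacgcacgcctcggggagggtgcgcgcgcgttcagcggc
HNRNPUL2 promoter: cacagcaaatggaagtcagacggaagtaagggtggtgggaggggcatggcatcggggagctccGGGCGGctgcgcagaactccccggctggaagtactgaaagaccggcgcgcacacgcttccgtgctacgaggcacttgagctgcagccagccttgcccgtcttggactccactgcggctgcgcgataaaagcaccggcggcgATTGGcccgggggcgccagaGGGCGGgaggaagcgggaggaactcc
U2AF1L4 promoter: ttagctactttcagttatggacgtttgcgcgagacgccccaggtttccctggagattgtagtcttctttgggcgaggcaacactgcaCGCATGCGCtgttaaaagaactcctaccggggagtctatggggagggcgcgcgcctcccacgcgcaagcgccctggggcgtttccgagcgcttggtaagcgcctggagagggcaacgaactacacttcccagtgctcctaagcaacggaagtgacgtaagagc
HNRNPA0 and HNRNPUL2 hold GGGCGG and CCAAT (as ATTGG), and U2AF1L4 holds GCGCATGCG on the other strand. Promoters were matched for 43 of the 48 tested members and 6857 of the tested genes, using the first listed start. CCAAT stood in 48.8% of the members' windows against 35.3% of all, CCGGAA in 37.2% against 25.4%, GGGCGG in 55.8% against 68.8% and TATAAA in 11.6% against 4.97%. GCGCATGCG stood in 4.65% against 3.33%, and AAGATGG in 0 of 43 windows against 3.62%. The median GC content was 61.6% in the members and 65.6% in all. A match is a description of these letters and not a bound site, and no test was made.

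Of the other splicing genes, limma called 4 of 80 for ES-2 minus OVCAR-3 (5%, against 16.5% of all tested genes). It called 2 for ES-2 minus SKOV-3 (2.5%, against 12.1%) and 7 for OVCAR-3 minus SKOV-3 (8.75%, against 14.6%). PTBP3, a polypyrimidine tract binding protein, was lower in ES-2 (line mean 8.77) and OVCAR-3 (8.98) than in SKOV-3 (9.98), with ES-2 minus SKOV-3 at −1.21 (limma adjusted p 0.00416) and the comparison of OVCAR-3 with SKOV-3 at an adjusted p of 0.00666. MBNL2 had 8.21, 10.51 and 9.38 for ES-2, then OVCAR-3, then SKOV-3, and ES-2 minus OVCAR-3 was −2.29 (adjusted p 0.00169), with the other pairs called as well. PCBP4, a poly-C binding protein, was highest in OVCAR-3 with 8.90, against 7.16 for ES-2 and 7.59 for SKOV-3. ES-2 minus OVCAR-3 was −1.75 (adjusted p 0.000971) and OVCAR-3 minus SKOV-3 1.31 (adjusted p 0.00382). ESRP2, an epithelial splicing regulator, had 5.02, 6.49 and 5.20 for ES-2, then OVCAR-3, then SKOV-3, and OVCAR-3 minus SKOV-3 was 1.29 (adjusted p 0.00930). ES-2 minus OVCAR-3 was −1.47 for ESRP2 (adjusted p 0.00485). The other genes called were GEMIN7, highest in OVCAR-3, and GEMIN5 and AQR, higher in OVCAR-3 than SKOV-3 by 1.15 and 1.11.

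The members lay on 19 chromosomes in all, most often on chromosome 1 (9 genes, 16.4%, against 9.76% of named genes) and chromosome 19 (8 genes, 14.5%, against 7.26%). Those on chromosome 19 were HNRNPL, HNRNPM, HNRNPUL1, PRPF31, SNRPA, SNRPD2, U2AF1L4 and U2AF2. Of these 8, HNRNPUL1 and SNRPD2 had lower signal in all 3 lines after miR-135a-3p (background 13.4%). Between lines 0 of the 8 were called, with backgrounds of 16.5%, 12.1% and 14.6% in the 3 comparisons.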

How the data were processed

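The deposited table holds log2 signals of 53617 probe sets on 6 arrays, as the authors deposited them. The submitters' processing notes name RMA, Transcriptome Analysis Console 3.0 and Affymetrix Expression Console 1.4. Settings and genome build are not given in the sources used here, and no further normalization was applied. GEO's platform annotation named 16098 probe sets by 1 gene, and the other 37519 were left out. The brightest probe set, by its mean over the 6 arrays, stood for a gene, and was tested where that mean was at least 5.

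limma 3.58.1 in R 4.3.3 fitted all 8620 tested genes. The transfection was tested with the line as a block, because each line gave both arrays, and the deviations of same-line arrays from the group means correlated at 0.72 for ES-2, 0.72 for OVCAR-3 and 0.59 for SKOV-3. Lines were compared with the transfection as a block. Calls needed a Benjamini-Hochberg adjusted p under 0.05 over all tested genes and, between lines, a 2-fold difference. Sizes of 1.5-fold within a line are descriptions. The precision is limited by the number of arrays. The fit was tested on simulated data. Alternatives were other filters, scalings, probe set rules, no block, no variance moderation and leaving out arrays or lines.

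The members and lists were chosen with earlier results of these data known. Named genes were those with the lowest and highest differences in each class or list, those of at least 1.5-fold in a line, those with 1 direction in all lines and those called between lines, and others were named after their values were seen.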

Additional observations from a re-analysis of the deposited data

Results flagged for a closer look

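U2AF1L4 is given again because its signal after miR-135a-3p moved in opposite directions in 2 lines. The log2 difference was 0.65 in SKOV-3 and −0.92 in OVCAR-3, each from 1 array per transfection. The difference between the lines was not tested.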

How the results depend on the processing

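Over the alternatives 106 of 130 recomputed results on the members as a group were counted as kept, as were 448 of 453 values of single genes. Of the single-gene values 4 moved by over 1 SD, 1 lost its call and 0 called values changed sign. Kept does not mean unchanged. The 12 members lower in all lines became 9 after cyclic loess, which was counted as kept. HNRNPA1 stayed between −0.53 and −0.48 with limma adjusted p between 0.632 and 0.9999 over 12 alternatives. Without the line as a replicate block it was −0.52 with 0 members called. With no filter, 1 member in ES-2 and 2 in OVCAR-3 reached 1.5-fold, and in OVCAR-3 0 at a mean of at least 6 and 4 with equal medians. Members higher in all lines were 2 after cyclic loess and 3 after quantile normalization. Leaving out 1 line gave 16 to 23 lower in both remaining lines, against 23.1% to 32.4% of all tested genes. It gave 3 to 10 higher, against 18.6% to 24.1%. Agreement in 2 lines is the weaker demand, so these counts could not be under those for all lines. Among the 30 members with a mean of at least 8, chosen after seeing the data, 5 were lower in all lines (16.7%). Of the 2012 tested genes this bright, 12.6% were. Between ES-2 and SKOV-3, 2 members were called with no filter, 0 with equal medians and 0 without variance moderation, which also left 0 between OVCAR-3 and SKOV-3. An adjusted p alone called 5, 8 and 7 members for ES-2 against OVCAR-3, ES-2 against SKOV-3 and OVCAR-3 against SKOV-3. No share over all tested genes is given beside these counts, those of the other filters and scalings, or those without 1 array. Leaving out 1 array gave 0 to 1, 0 to 3 and 1 to 4 in the same order. The ES-2 against SKOV-3 count was 0 without either the miR-blank ES-2 or the miR-blank SKOV-3 array, and 3 without the miR-135a-3p SKOV-3 array. The OVCAR-3 against SKOV-3 count was 1 without the miR-135a-3p OVCAR-3 array and 4 without the miR-135a-3p SKOV-3 array, and the ES-2 against OVCAR-3 count was 1 without the miR-135a-3p OVCAR-3 array. The cause was not tested. Dim probe sets limit what the arrays show for 7 members.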
